A study of Rattus norvegicus with 13 samples.

Results

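The genes of blood and lymph vessels and of the factors that make vessels grow were described in the thyroids of young rats whose mothers had received potassium iodide (KI) in pregnancy. The 36 genes were taken by name, as every gene-specific row of the array whose gene name was on a list of endothelial and angiogenic genes, out of 36174 gene names on the array. Wistar mothers were given KI at 1 mg/kg/day (KI-treated group) or saline (control group) by gavage, on 8 days starting at gestational day 9. Thyroids of the male progeny were taken 30 days after weaning, on postnatal day 51, so that the animals measured had met KI only through their mothers. RNA of the whole gland was labelled with 1 dye (Cy-3) and hybridised to Agilent arrays, 1 array per animal, 6 in the KI-treated group and 7 in the control group. The litter of each animal was not given, so the animals were treated as independent and p-values measure the spread between these 13 thyroids.

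The thyroid is among the most densely vascularised endocrine glands, and each follicle is wrapped in a basket of fenestrated capillaries that bring iodide and carry hormone away. Endothelial cells hold together through cadherin, claudin and other adhesion molecules. They are told to divide, sprout or stay quiet by vascular endothelial growth factors (VEGF) acting on the receptors Flt1, Kdr and Flt4, and by angiopoietins acting on Tek. Pericytes, recruited by platelet-derived growth factor (PDGF), coat the capillaries, and lymphatic vessels are set apart by Prox1 and Lyve1.

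The 36 genes were read by 52 probes of 60 bases, and the probes that carry the results are shown first. Listed are the probes of the 5 genes with an unadjusted p below 0.05, together with both probes of Ets1, because 2 probes of one gene differed there. Each line gives the first 30 bases of the probe, 5′ to 3′, as the array design lists them, in lower case throughout.
Emcn, chr2:234958254-234958549: ctctgcatcgctaacaactgcaaaaaccat
Tie1, chr5:138950263-138950322: tgcgatcgaatatgccccgtatggaaacct
Nos3, chr4:6159286-6159345: atcagcaacgctaccacgaggacattttcg
Robo4, chr8:38664963-38665022: gaagctgactgtgtctttactggtatgtgg
Vwf, brighter probe, chr4:161759938-161759997: tgtacacgccggaaagcggtacccacctgg
Vwf, dimmer probe, chr4:161854554-161854613: tggctcggttgtgcaccacgaggtcatcaa
Ets1, brighter probe, chr8:32545131-32545190: gatgctggcacatcattttgctggaaagtt
Ets1, dimmer probe, chr8:32542970-32788482: gaatgtaatgtttcctgataggtgaatgaa

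Coordinates are those of the array design on rat build rn4. The probes of Nos3 and Tie1 lie on the minus strand and the others on the plus strand. The interval listed for Emcn covered 296 bases of the genome for a probe of 60, and that of the dimmer Ets1 probe covered 245513. In the transcripts named by the design, the 2 Vwf probes begin at bases 1278 and 8595, far apart in one long messenger. Whether a probe lies in coding or untranslated exon sequence was not analysed here.

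Levels are given as log2 of the background-corrected signal minus the array's own 75th percentile over all probes, so that 0 is the 75th percentile and 1 unit is a 2-fold step. Levels of different genes come from different probes and are not set against each other. Between 34840 and 41050 of the 58717 gene spots of an array were well above background and 0 were saturated. Of the 36 genes, 34 were tested, having at least 1 probe well above background on 6 or more arrays, and 32 of those were well above background on all 13. Figf (the growth factor VEGF-D) passed on 5 arrays, 3 of them KI-treated, and Sox17 on 3, 2 of them KI-treated. Both were left untested, and Pdgfb just entered with 6 arrays. The defining endothelial genes Pecam1, Cdh5, Kdr and Tek were well above background in every thyroid. Of 10 follicle cell markers 9 were tested, and their summed level was 10.2 to 10.4 in the KI-treated group and 10.3 to 10.9 in the control group.

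Controls 4 and 6 stood apart from the other arrays before any vascular gene was considered. Their 75th percentiles were 8.18 and 7.92, against 8.48 to 9.10 elsewhere, and after scaling the median of their brightest genes lay 0.46 and 0.37 above the mean of all arrays. The median of the 34 vascular genes lay 0.33 and 0.34 above the genes' means in these 2 thyroids, and between -0.16 and 0.17 in the other 11. Over all tested genes the matching medians were 0.27 and 0.12 in controls 4 and 6. Both were scanned in the same session as KI 2 and KI 3. The counts and the genes with a limma p below 0.05 are therefore given with and without them, as are other members where the pair moved a difference most.

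**Figure D1:**
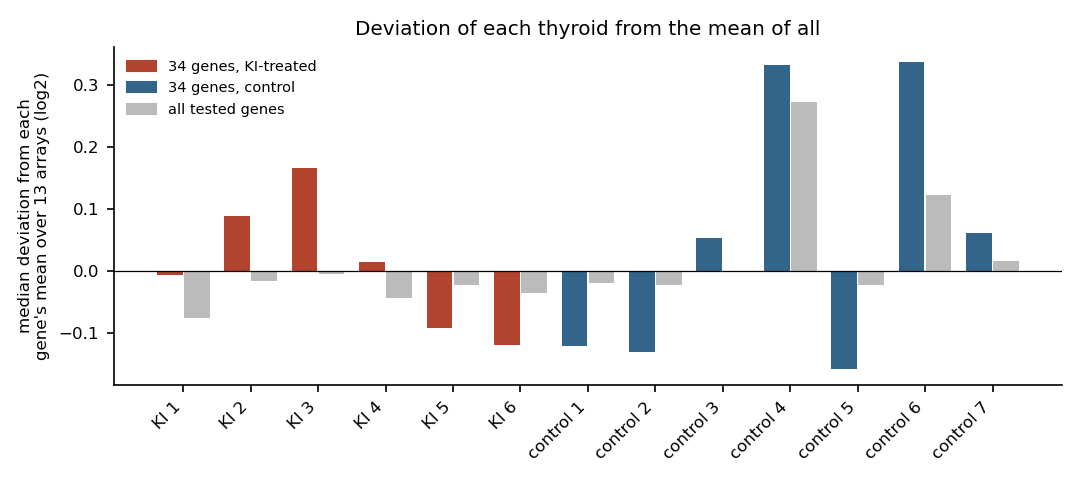
Median deviation (log2) of the 34 tested vascular genes (coloured bars) and of all tested genes (grey bars) from each gene's mean over 13 arrays, for every thyroid. For the vascular genes controls 4 and 6 reach 0.33 and 0.34, while the other thyroids stay between -0.16 and 0.17. For all tested genes controls 4 and 6 are at 0.27 and 0.12.

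No vascular gene differed between the KI-treated and control groups after adjustment. With limma and Benjamini-Hochberg adjustment over the 25717 probes tested, 0 of 34 genes passed 0.05, where 0.0% of all probes passed (3271 had an unadjusted p below 0.05), and adjusted p ranged from 0.358 to 0.991. Before adjustment 5 genes had a limma p below 0.05, and their exact permutation p ranged from 0.0047 to 0.023. Emcn, Tie1 and Nos3 were higher in the KI-treated group, 3 of 34 where 5.21% of the 20720 genes tested were called higher. Robo4 and Vwf were lower, 2 of 34 where 7.59% of genes were called lower. These 2 counts lay near the background, and the groups did not overlap in 0 of the 34 genes, against 0.618% of all genes. With another background correction and scaling (normexp and quantile normalization) 5 were higher, Angpt2 and Prox1 joining, against 6.82% of all genes, and 2 lower, against 6.03%. With scan session as a block 5 were higher (Emcn, Nos3, Angpt2, Flt1 and Tie1) where 8.03% of all genes were, and 4 lower (Robo4, Vwf, Pecam1 and Sox18) where 11.7% were.

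The differences were small as a whole. Their median was -0.045 on the log2 scale, with 15 genes above 0 and 19 below, and the median over all tested genes was -0.095. The sign of so small a median depended on the scaling, and it was 0.045 with quantile normalization and 0.062 with the deposited values. In 32 of 34 genes the difference was under 0.5 log2 units, as it was in 90.4% of all genes. The 95% confidence interval stayed within 1 log2 unit in 29 genes, so that a 2-fold difference lay outside it. The 5 genes with wider intervals were Emcn, Pgf, Angpt2, Pdgfb and Apln. In RNA of a whole gland, fewer endothelial cells and less RNA per endothelial cell cannot be told apart.

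**Figure D2:**
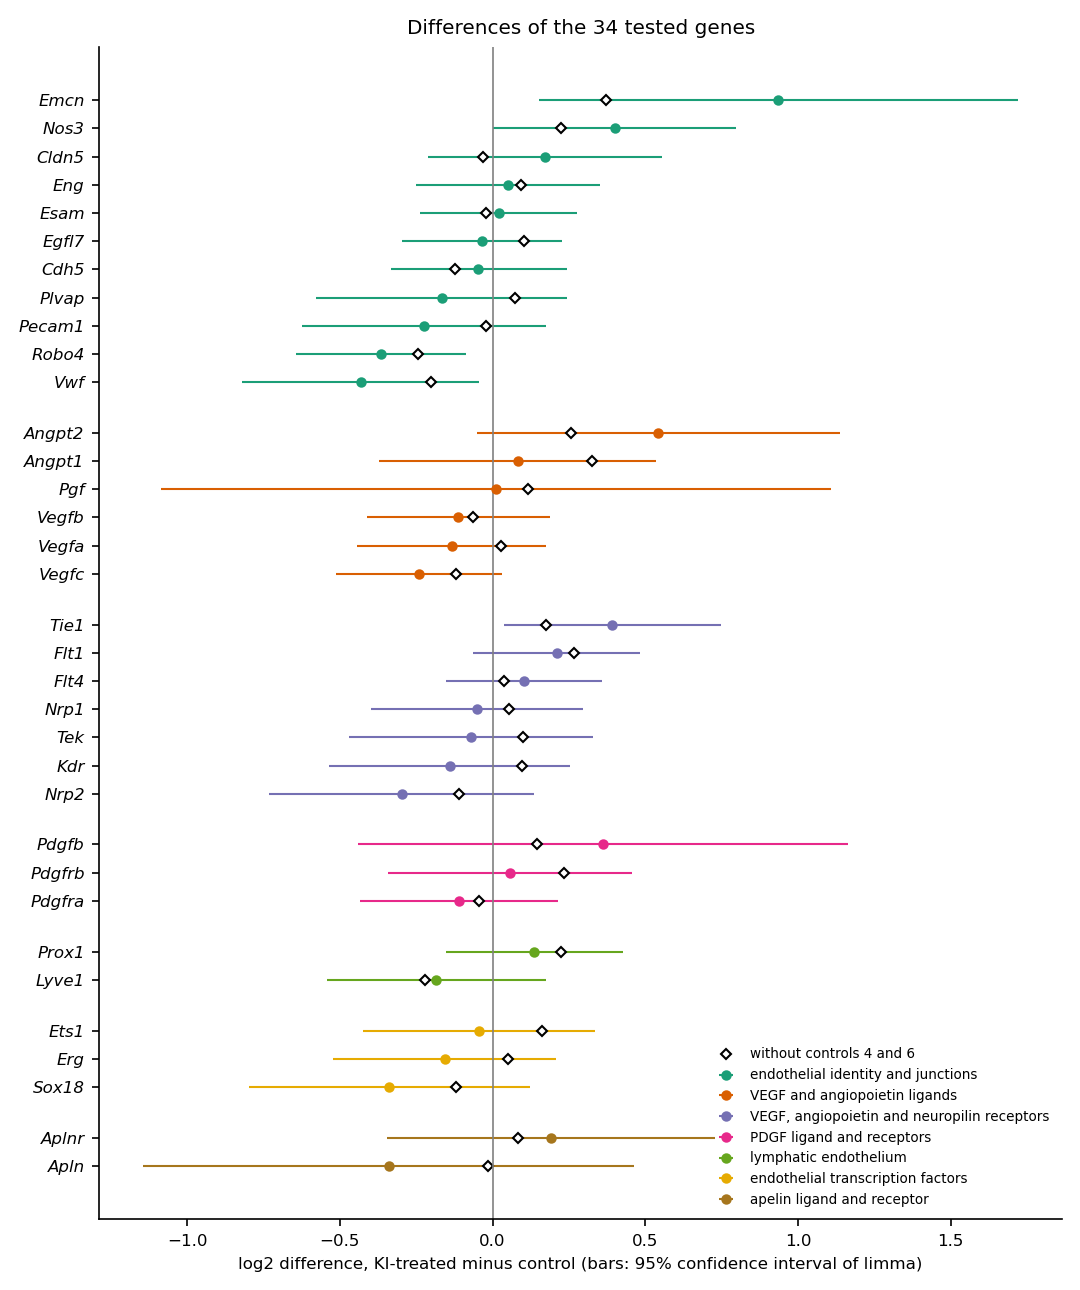
Log2 difference, KI-treated minus control, of the 34 tested genes (brightest probe each), grouped and coloured by role, with limma's 95% confidence interval. Open diamonds show the difference without controls 4 and 6, which lies closer to 0 for Emcn, Nos3, Tie1, Robo4 and Vwf.

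Without controls 4 and 6, 2 genes were higher (Emcn and Nos3) and 1 lower (Robo4) at an unadjusted limma p below 0.05. Across all genes 3.24% were then higher and 6.24% lower. Groups did not overlap in 0 vascular genes, against 1.09% of all genes. The median difference became 0.064, against -0.010 over all genes. The sign turned in 10 genes, Esam, Cldn5, Egfl7, Plvap, Vegfa, Kdr, Tek, Nrp1, Erg and Ets1, none of which had passed either test.

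Among the 11 genes of endothelial identity and junctions, 2 were higher and 2 lower before adjustment, with a median difference of -0.034. Emcn encodes endomucin, a sialomucin of capillary and venous endothelium that hinders leukocyte adhesion. Its level was 1.13, 1.43 and 1.77 (lowest, median and highest) in the KI-treated group and -0.91, 0.97 and 1.39 in the control group. The 2 low controls were controls 4 and 6, both at -0.91, and of the other 5 controls only control 2 reached into the KI-treated range. The difference was 0.94 (SE 0.37), with a limma p of 0.023 and an adjusted p of 0.369, and all 6 KI-treated thyroids lay above the control median. Leaving out those 2 controls gave 0.37 (SE 0.12, exact permutation p = 0.017). By scan session the difference was 2.44, 0.048 and 0.80. Here and below, controls 4 and 6 were the only controls of the first session. KI 4 was the only KI-treated thyroid of the third.

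Nos3 encodes endothelial nitric oxide synthase, the source of the vasodilator nitric oxide in vessel walls. It measured -0.25, -0.15 and -0.006 in the KI-treated group and -1.58, -0.39 and -0.24 in the control group. Control 4 alone was far below the rest, and the next control lay at -0.51. The difference was 0.40 (SE 0.19), with an exact permutation p of 0.0047, a limma p of 0.049 and an adjusted p of 0.391. Without controls 4 and 6 it was 0.23 (SE 0.079, exact permutation p = 0.0043), and all 6 KI-treated thyroids were above the control median. Within the 3 scan sessions the difference was 0.90, 0.19 and 0.23, in the same direction each time. The first value rested on controls 4 and 6, and the last on KI 4 alone.

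Robo4, an endothelial receptor that steadies the vessel wall against leakage, was lower in the KI-treated group. Its lowest, median and highest levels were -1.97, -1.76 and -1.57 there and -1.71, -1.43 and -1.04 in the control group. The 2 highest thyroids were controls 4 and 6, and the groups overlapped among the rest. The difference was -0.37 (SE 0.13), with a limma p of 0.014 and an adjusted p of 0.358. Without the pair it was -0.24 (SE 0.11, exact permutation p = 0.043), and within scan sessions it was -0.86, -0.16 and -0.12.

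Vwf encodes von Willebrand factor, the clotting protein stored in endothelial granules, and its 2 probes disagreed. On the brighter probe the KI-treated group measured 2.07, 2.34 and 2.59 and the control group 2.34, 2.63 and 3.57, the 2 highest again being controls 4 and 6. The difference there was -0.43 (SE 0.18), with a limma p of 0.031 and an adjusted p of 0.379. Without the pair it was -0.20 (SE 0.10, exact permutation p = 0.056). The dimmer probe, printed above and lying towards the other end of the transcript, gave 0.018 (SE 0.22). Within scan sessions the brighter probe gave -1.10, -0.18 and -0.16.

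The other 7 genes of this role gave no difference beyond the spread between animals. Pecam1 (the adhesion molecule CD31) measured 4.01, 4.14 and 4.65 in the KI-treated group and 4.02, 4.35 and 5.10 in the control group, a difference of -0.22 (SE 0.19) that was -0.021 without controls 4 and 6. Cdh5 (VE-cadherin, which ties endothelial cells together) measured -1.70, -1.39 and -1.32 in the KI-treated group and -1.84, -1.31 and -1.17 in the control group, a difference of -0.046 (SE 0.14). Controls 4 and 6 lay above every KI-treated thyroid in Pecam1. In Cdh5 the control range enclosed the KI-treated one, although all 6 KI-treated thyroids lay below the control median. All 6 also lay below it in Vegfc and Nrp2, so this trait was not particular to the genes called before adjustment. Plvap, the protein of the diaphragms that span capillary fenestrae, differed by -0.17 (SE 0.19). Cldn5, a tight junction claudin, differed by 0.17 (SE 0.18). Eng (a co-receptor of the TGF-beta family), Esam (an endothelial adhesion molecule) and Egfl7 (a secreted endothelial protein) differed by 0.050, 0.020 and -0.034.

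**Figure D3:**
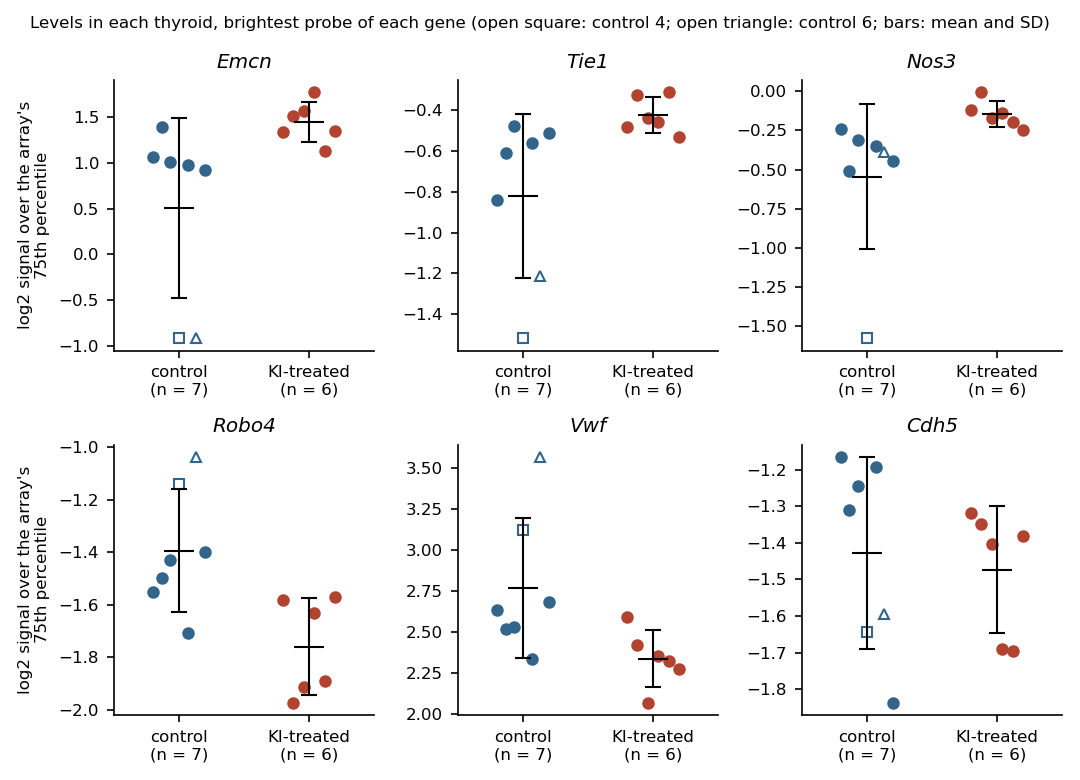
Level (log2 over the array's 75th percentile) of 6 endothelial genes in every thyroid, control (n = 7) and KI-treated (n = 6), with mean and SD. Open symbols are control 4 (square) and control 6 (triangle), which are the 2 lowest thyroids for Emcn and Tie1 and the 2 highest for Robo4 and Vwf.

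Of the 7 VEGF and angiopoietin ligands 6 were tested, and 0 passed 0.05 by limma before adjustment. Vegfa, the main growth factor of fenestrated capillaries, measured 5.78, 5.93 and 6.08 in the KI-treated group and 5.62, 6.0 and 6.57 in the control group. The difference was -0.13 (SE 0.15), and the control group enclosed the KI-treated one. Its other 2 probes gave -0.21 (SE 0.14) and 0.10 (SE 0.16). Vegfc, the growth factor of lymphatic vessels, differed by -0.24 (SE 0.13, exact permutation p = 0.061), or -0.12 without controls 4 and 6, and Vegfb by -0.11 (SE 0.14).

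Angpt2, which loosens the contact of endothelium with pericytes, had the widest difference of the ligands. It lay between -2.70 and -1.39 in the KI-treated group and between -3.78 and -2.01 in the control group, with a difference of 0.54 (SE 0.28, exact permutation p = 0.095) that was 0.26 without controls 4 and 6. Angpt1, the ligand that keeps vessels quiet, differed by 0.083 (SE 0.21), or 0.33 without that pair. Its second tested probe gave -0.215 (SE 0.167), or -0.083 without the pair. Pgf, the placental growth factor, varied so widely between animals (SE 0.51) that the interval ran from -1.09 to 1.11. It measured 4.12, 5.34 and 6.49 in the KI-treated group and 2.92, 5.68 and 6.44 in the control group, the lowest value being control 1.

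Among the 7 receptors, Tie1 was higher before adjustment and the others were not called. Tie1 is an endothelial receptor without a firmly bound ligand of its own that modulates signalling through Tek. It measured -0.54, -0.45 and -0.31 in the KI-treated group and -1.52, -0.61 and -0.48 in the control group. Controls 4 and 6 were the lowest, and all 6 KI-treated thyroids lay above the control median. The difference was 0.39 (SE 0.17), with a limma p of 0.033 and an adjusted p of 0.382. Without the pair it was 0.17 (SE 0.087, exact permutation p = 0.022, limma p = 0.071), and within scan sessions it was 0.98, 0.28 and 0.058.

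Kdr, the receptor through which VEGF-A drives endothelial growth, measured 5.82, 5.95 and 6.22 in the KI-treated group and 5.54, 6.08 and 6.70 in the control group. The difference was -0.14 (SE 0.19), inside the spread of the controls. Tek, the angiopoietin receptor, measured 2.58, 2.90 and 3.39 in the KI-treated group and 2.50, 2.98 and 3.47 in the control group, a difference of -0.071 (SE 0.19). Flt1, the receptor that also traps VEGF-A, differed by 0.21 (SE 0.13). Its second probe gave -0.097 (SE 0.26). The neuropilins, co-receptors of VEGF, differed by -0.051 (Nrp1) and -0.30 (Nrp2), and Nrp2 by -0.11 without controls 4 and 6.

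Flt4, the receptor of lymphatic endothelium, measured -1.58, -1.33 and -1.27 in the KI-treated group and -1.72, -1.52 and -1.04 in the control group. The groups overlapped over most of their range, and the difference was 0.10 (SE 0.12). The other lymphatic genes gave 0.14 (SE 0.14) for Prox1, the transcription factor that sets lymphatic identity, and -0.18 (SE 0.17) for Lyve1, a hyaluronan receptor. A dimmer probe of Prox1 gave -0.22 (SE 0.21).

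PDGF ligand and receptors differed by less than the spread between animals. Pdgfb, which endothelium secretes to attract pericytes, measured -4.69, -4.08 and -2.07 in the KI-treated group and -5.25, -4.29 and -3.29 in the control group. The highest value was KI 3, and the difference was 0.36 (SE 0.37). Pdgfrb, its receptor on pericytes, differed by 0.058 (SE 0.19). Pdgfra, the receptor of fibroblasts and other mesenchymal cells, measured 0.84, 1.23 and 1.54 in the KI-treated group and 1.08, 1.23 and 1.86 in the control group, with a difference of -0.11 (SE 0.15). Of the apelin pair, which guides vessel calibre, the ligand gene Apln gave -0.34 (SE 0.38), or -0.015 without controls 4 and 6, and the receptor gene Aplnr 0.19 (SE 0.25).

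The 3 tested endothelial transcription factors gave a median of -0.16 on their brightest probes, and 0 of 3 passed 0.05. Erg, a factor of the ETS family that maintains endothelial identity, gave -0.16 (SE 0.17) and its dimmer probe 0.23 (SE 0.19). Sox18, a factor of early vessel and lymphatic fate, gave -0.34 (SE 0.22), or -0.12 without controls 4 and 6. Ets1, another ETS factor found in endothelium and lymphocytes, measured 3.14, 3.56 and 3.92 in the KI-treated group and 3.18, 3.37 and 4.09 in the control group on the brighter probe. The difference there was -0.043 (SE 0.18), or 0.042 with quantile normalization, and neither group stood out.

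The dimmer Ets1 probe, whose listed interval covers 245513 bases, gave another picture. It measured -0.66, -0.37 and 0.38 in the KI-treated group and -0.38, 0.51 and 0.91 in the control group. All 6 KI-treated thyroids lay below the control median, although the groups overlapped. The difference was -0.65 (SE 0.22), with a limma p of 0.0096, an exact permutation p of 0.022 and an adjusted p of 0.353. It was -0.74 (SE 0.21) without controls 4 and 6. Within scan sessions it was -0.077, -0.50 and -1.25, the last resting on KI 4 alone in its group. This probe was not one of the brightest probes counted above.

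Probes of one gene often disagreed in sign. Of the 11 genes with more than 1 tested probe, 6 had probes on both sides of 0, namely Vwf, Vegfa, Angpt1, Flt1, Prox1 and Erg. In Vegfb, Flt4, Nrp1, Ets1 and Apln the probes had 1 sign. Nearly all of these intervals included 0. The exceptions were the brighter Vwf probe and the dimmer Ets1 probe, each beside a probe of the same gene near 0.

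**Figure D4:**
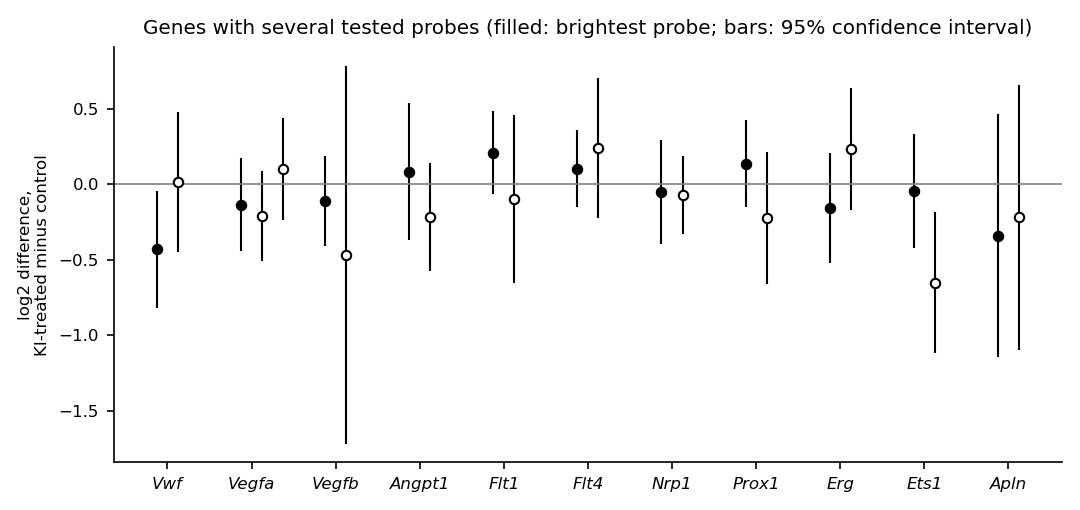
Log2 difference, KI-treated minus control, of each tested probe for the 11 genes with several, with limma's 95% confidence interval (filled, brightest probe). The brighter probe of Vwf (-0.43) and the dimmer probe of Ets1 (-0.65) are the only ones whose interval leaves out 0.

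Further vascular genes, listed by pathway from general knowledge, gave a like result. Of 93 such genes 79 were tested, 4 were higher and 2 lower by limma before adjustment, against the 5.21% and 7.59% of all genes given above, and 0 passed after it. The 4 higher genes were all among 27 tested endothelial genes. They were Tal1 and Lmo2 (transcription factors of blood and endothelial lineages) at 0.58 (SE 0.21) and 0.31 (SE 0.14), Ptprb (the phosphatase that restrains Tek) at 0.56 (SE 0.22), and Procr (the protein C receptor) at 0.51 (SE 0.23). Without controls 4 and 6 they were at 0.30, 0.17, 0.26 and 0.24, and Tal1 alone of the 4 was still called (exact permutation p = 0.022). The 2 lower genes, among 12 of the Notch and ephrin pathways, were the Notch targets Hey1, at -0.43 (SE 0.14), and Hey2, at -0.43 (SE 0.17). Without that pair Hey1 was still called, at -0.33 (exact permutation p = 0.0043), and Hey2 was not, at -0.28 (exact permutation p = 0.13). Gata2, another endothelial and blood transcription factor, chosen here after its values were seen, was then called lower, at -0.23 (exact permutation p = 0.024) against -0.095 over all arrays. The counts without the pair were thus 1 higher and 2 lower, where 3.24% and 6.24% of all genes were.

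The hypoxia response, which induces Vegfa, gave 0 calls among 12 genes and a median of -0.19, or -0.025 without controls 4 and 6. The vascular branch of BMP and TGF-beta signalling gave 0 among 11 (median -0.056), and the other angiogenic factors and inhibitors gave 0 among 17 (median -0.029). The smallest limma p in these 3 lists belonged to Serpinf1, an inhibitor of angiogenesis, at 0.45 (SE 0.22, exact permutation p = 0.085), and to Smad1, a BMP signal carrier, at -0.23 (SE 0.11, exact permutation p = 0.030).

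Markers of other cell types were read from the same arrays. Those of pericytes and smooth muscle gave 0 calls among 10 genes, with summed levels of 4.79 to 5.28 in the KI-treated group and 4.57 to 5.37 in the control group. Fibroblast markers gave 0 among 7. Skeletal muscle markers stood out, with 1 of 7 tested genes lower, a median difference of -1.41, and summed levels of 1.70 to 5.86 in the KI-treated group and 4.04 to 7.13 in the control group. Over the lists of C cells, parathyroid, adipocytes, lymphocytes, macrophages, blood, nerve, and cartilage and airway, medians lay between -0.30 and 0.16. Across these lists, each with 2 to 6 tested genes, 3 genes were higher and 3 lower. In the follicle cell list 1 of 9 tested genes was higher and 1 lower. Over all genes 5.21% were called higher and 7.59% lower. The part of these other cells in the vascular values was not tested.

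Between animals the vascular genes varied about as much as other genes. The median within-group SD of the 34 genes was 0.33, against 0.31 over all tested genes, and 19 genes lay above that value. Flt4, Esam and Egfl7 were the steadiest, with SDs of 0.18 to 0.19. Pgf (1.04), Apln (0.76), Pdgfb (0.75) and Emcn (0.74) varied most, and Pgf more than 98.5% of all genes.

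Scan session went with the level of some endothelial and pericyte genes. The 4 thyroids scanned in the first session (KI 2, KI 3, control 4 and control 6) were all above the other 9 in Pecam1, Tek, Nrp1 and Pdgfrb, 4 of 34 genes against 1.97% of all genes. All 4 lay below the other 9 in 0 of the 34, against 0.796% of all genes. For Pecam1 the first session ran from 4.63 to 5.10 and the other sessions from 4.01 to 4.56. For Tek the ranges were 3.30 to 3.47 and 2.50 to 3.197. Both groups were present in every session, although the third held KI 4 as its only KI-treated thyroid. Whether the tissue was dissected or extracted in the same sets was not given.

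Co-variation across the 13 thyroids was then measured, with group means subtracted, as Pearson's r and Spearman's rho over 33 genes for each of 2 reference genes. With Cdh5, the junction cadherin, the median r was -0.32 against -0.13 over all genes, and 7 of 33 were positive. By permutation 1 gene, Vegfc, had a p of r below 0.05, where 6.72% of all genes did (r = -0.72, p = 0.016, rho = -0.84, p = 0.0017). Without the 2 arrays farthest from the Cdh5 median its r was -0.81. Nos3 had a permutation p below 0.05 by rho only, in the positive direction (rho = 0.63, p = 0.021, r = 0.40, p = 0.23). None of the 33 passed adjustment over all genes, nor did any other gene (0.0%). Without controls 4 and 6 the median was -0.18 and 1 gene, Cldn5, had a p of r below 0.05 (r = -0.66, p = 0.020, rho = -0.63, p = 0.080), against 3.55% of all genes and 0.0% after adjustment. Vegfc was then at r = -0.67 (permutation p = 0.073) and rho = -0.85 (p = 0.0048). Nos3 was at r = 0.44 (permutation p = 0.24) and rho = 0.70 (p = 0.034). Dropping 2 further arrays left the r of Vegfc at -0.46 and that of Cldn5 at -0.47.

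With Pecam1 the picture differed. The median r was 0.32 against 0.21 over all genes. By r 16 of 33 had a permutation p below 0.05, where 37.8% of all genes did, and by rho fewer of the 33 did. After adjustment over all genes 9 of 33 passed, against 20.6% of all genes. Highest were Plvap (r = 0.92, p = 0.00017, rho = 0.80, p = 0.0045), Pdgfrb (r = 0.91, p = 8e-05, rho = 0.88, p = 0.00051) and Tek (r = 0.90, p = 0.00021, rho = 0.85, p = 0.0014). The 2 arrays farthest from the Pecam1 median were controls 4 and 6. Dropping them left r at 0.84, 0.90 and 0.86. Of the 16 genes 2 went the other way, Emcn (r = -0.69, p = 0.032, rho = -0.56, p = 0.073) and Tie1 (r = -0.64, p = 0.039, rho = -0.41, p = 0.22). Dropping the pair left their r at -0.27 and -0.14, and refitting without controls 4 and 6 gave 0.13 and 0.24. Both relations thus rested on those 2 arrays.

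Refitted without controls 4 and 6, 5 of 33 had a p below 0.05, against 16.7% of all genes, and 0 passed adjustment, as in all genes (0.0%). With scan session and group both fitted out, the median r with Pecam1 was 0.19, against 0.11 over all genes. Of the 33, 6 were over 0.5, where 12.9% of all genes were. Plvap was then at 0.74, Pdgfrb at 0.65 and Tek at 0.58, while Nrp1, at 0.75 before, was at -0.13. Pecam1 and Cdh5 themselves did not move together (r = -0.42, p = 0.19, rho = -0.56, p = 0.072), although both mark endothelium, and with session fitted out r was -0.86. Each session held 4 or 5 thyroids, too few for a correlation within it.

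**Figure D5:**
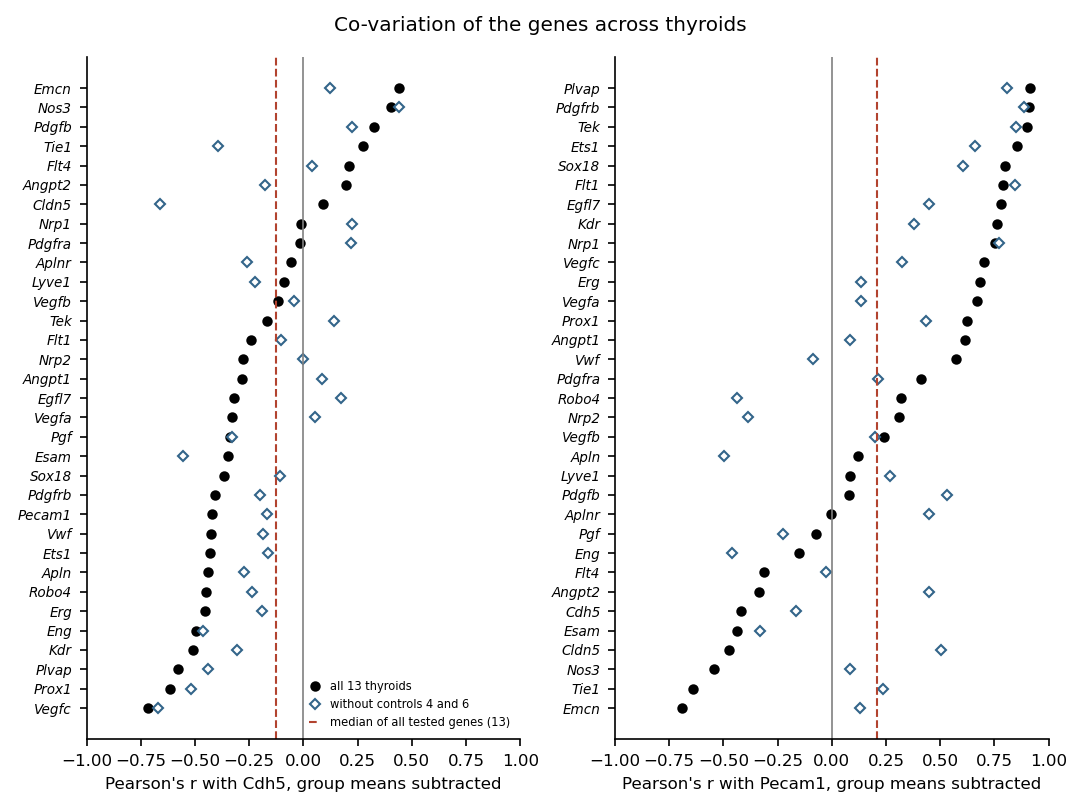
Pearson's r of 33 genes with Cdh5 (left) and with Pecam1 (right) over 13 thyroids, group means subtracted (filled), and without controls 4 and 6 (open diamonds). The dashed line is the median over all tested genes, at -0.13 for Cdh5 and 0.21 for Pecam1. With Pecam1, 15 genes lie above 0.5, against 32.3% of all genes, and with Cdh5 none does, against 7.72%.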

How the data were processed

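Thyroid RNA of 13 rats was measured on one-colour Agilent arrays. The authors deposited scanner files in which Feature Extraction (version 10.7.3.1) gives each spot's fluorescence intensity after background subtraction, with no scaling between arrays. A deposited table holds log2 values of the same spots. Its normalization is not given in the sources used here, and it served as an alternative.

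From the processed signals, log2 minus each array's 75th percentile over 45598 probes was taken, after leaving out control and outlier-flagged spots and averaging spots of one probe. The 25717 probes that the software marked well above background on 6 or more arrays were tested with limma (version 3.58.1, R 4.3.3), lmFit and eBayes, Benjamini-Hochberg adjustment and a threshold of 0.05. The fit was tried on simulated arrays with independent noise. These lacked shifts of whole arrays or scan sessions, so the trial does not cover them. A gene is represented by its brightest probe. Exact two-sided permutation tests ran over all 1716 divisions of the arrays into 6 and 7. Correlations used 100000 two-sided permutations within groups (Python 3.11.15, numpy 2.4.6), adjusted over all tested genes; the fixed plan had named adjustment over the members.

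The 36 genes, their roles, the marker lists and the pathway lists were chosen with earlier results of these data known. Values by array are given for genes with an exact p below 0.05, for Pecam1, Cdh5, Kdr, Tek, Vegfa and Ets1, and for genes with an outlying array. From the pathway lists the 8 genes of smallest limma p are named, and outside that rule Gata2, chosen after its values were seen. Alternatives were the scaling, the background correction, the deposited values, the filter, slide, scan session and replicate number as blocks, array weights, variance models, the methods' t-test, other probes, and leaving out each array. A 75th percentile over all gene spots, the fits without controls 4 and 6, and correlations with scan session fitted out were added after seeing the data. Replicate numbers did not pair the arrays. Cortex was not analysed here. The number of arrays limits the precision.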

Additional observations from a re-analysis of the deposited data

Results flagged for a closer look

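In 68 sets of values (34 genes in 2 groups), 5 held 1 array far from the rest of its group by Dixon's test, and chance flags about 1 set in 20. Nos3 was at -1.58 in control 4, where the next control lay at -0.51. Pgf was at 2.92 in control 1, against 5.06 or more in the other controls. Pdgfra was at 1.86 in control 4, above the next control at 1.39. In the KI-treated group, Pdgfb was at -2.07 in KI 3, where the next thyroid lay at -3.98. Flt4 was at -1.58 in KI 6, below the next at -1.34. Control 4 was thus the outlying array in 2 of 5, once at the low and once at the high end. What set these arrays apart was not tested.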

How the results depend on the processing

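On their brightest probes, the 5 genes named for an unadjusted p kept their direction in every alternative fit. Emcn (0.37 to 1.08) and Robo4 (-0.42 to -0.24) stayed past the unadjusted threshold in all of these fits. Nos3 missed it in 12 of 28 alternatives, Tie1 in 5 and Vwf in 5. Vwf did not keep its direction on its dimmer probe, where the difference was 0.018 (SE 0.22). No probe of the array passed adjustment except with array weights (55 probes) and without 1 array each of controls 1 and 2 (0 to 1 over the arrays left out). None of the 34 genes passed it in any fit. The count of genes with an unadjusted p below 0.05, 5 at first, was 3 with array weights (1 lower), 3 without controls 4 and 6 (1 lower), and 9 with scan session as a block (5 higher and 4 lower, against 8.03% and 11.7% of all genes). It was 3 to 6 with 1 array left out, 1 to 3 higher and 1 to 3 lower. Leaving out KI 2, KI 3 or KI 5 gave 3, and so each of these animals moved it. Normexp with quantile normalization gave 5 higher, against 6.82% of all genes. The median difference stayed between -0.08 and 0.064. Replicate numbers were tested as a replicate block, which gave 4 genes (2 higher and 2 lower) and 0 probes after adjustment. Deviations of same-numbered arrays correlated at -0.11 to 0.071, so the numbers pair nothing.

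With Cdh5 the count of correlated genes, 1 at first, was 2 with quantile normalization and with normexp under either scaling, 0 with the deposited values, 1 to 6 with 1 array left out (6 without control 7), and 16 with Pecam1 as reference. It was 15 with slide means subtracted, where the 2 arrays of each of slides 1, 2 and 4 mirror each other by construction. Fitting out the scan session gave values only. Low spots are the least certain, Pdgfb being well above background on 6 arrays. The causes of these shifts were not tested.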
